A study of Mus musculus with 21 samples.

Results

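The genes described here are 8 markers of enteric glia and of the Schwann cell lineage, S100b, Gfap, Sox10, Cdh19, Foxd3, Fabp7, L1cam and Ngfr. They were taken by symbol from a count table of 24062 genes measured in mouse colon, and all 8 were found in it. The members were chosen with measured values in view: Cdh19 was selected on its fold change in wild-type male tumours against normal colon, and Ngfr on that in wild-type female tumours against wild-type male tumours. For these 2 comparisons all values below are a description without a test. Elsewhere no test is given for either gene where a group that chose it is compared. The libraries that chose a gene still enter its printed tests in part, because all libraries were filtered and fitted together to estimate the spread.

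Total RNA of colon from C57BL/6 mice, depleted of ribosomal RNA, was sequenced in 21 libraries that form 7 groups of 3. The mice were wild-type (WT) or carried App NL-G-F (KI), a knock-in of a mutated amyloid precursor protein gene that is used as a model of Alzheimer's disease. The groups were WT male normal colon, WT male tumour, KI male normal colon, KI male tumour, WT female normal colon, WT female tumour and KI female normal colon. Tumours came from mice given AOM/DSS, the mutagen azoxymethane followed by the irritant dextran sulfate sodium, a standard regimen for colitis-associated colon tumours. Normal colon carries the label of no treatment, while the series text speaks of normal colon next to tumours or of normal colon from mice without tumours, so it is not settled here whether those mice received AOM/DSS. Ages are not given in the sources used here. The labels do not say that replicates are separate animals, so all p-values measure only the spread between these samples, which may be technical.

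Enteric glia are the supporting cells of the nervous system of the gut. They derive from the neural crest, as Schwann cells do, and surround the neurons of the myenteric and submucosal plexuses and the nerve fibres that run through the muscle and the mucosa. SOX10 is the transcription factor that maintains both lineages, FOXD3 acts with it in early crest cells, and S100B and GFAP are usual markers of the mature glial cell. In bulk tissue, fewer cells of a type and less RNA per cell cannot be told apart, and this holds for every level given here.

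Library totals ran from 3414123 to 26174008 counts, and levels are given as CPM, the usual library-scaled count with TMM adjustment. A total of 3 counts, taken as the floor, is worth 0.127 CPM in the deepest library and 0.873 CPM in the shallowest. Of the 8 genes, 7 passed the filter on low counts and were tested among 15936 genes. Fabp7, a fatty acid binding protein of radial glia and immature Schwann cells, did not pass: it had at most 8 counts in any library. Fold changes are log2 values from edgeR with their standard error (SE), and a gene is said to have changed where its adjusted p was under 0.05.

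In the mouse annotation of build GRCm38 all 8 are protein-coding genes. S100b lies at chr10:76253853-76261159 on the plus strand, Gfap at chr11:102887336-102900912 on the minus strand, and Fabp7 at chr10:57784881-57788450 on the plus strand. Sox10 lies at chr15:79154908-79165240 on the minus strand and Foxd3 at chr4:99656299-99658622 on the plus strand. Cdh19 lies at chr1:110888326-110977584, L1cam at chrX:73853778-73896105 and Ngfr at chr11:95568818-95587735, all on the minus strand. The exons of Foxd3 share 89 bases with those of a predicted miRNA gene, Gm23366, and the exons of L1cam share 100 bases with those of Arhgap4. How reads in shared stretches were counted is not given in the sources used here.

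The 250 bases before the RefSeq start site (build GRCm38.p6) are shown for 3 genes that the results below turn on: Gfap, which was lower in tumours of all 3 backgrounds, L1cam, and Ngfr, whose mean was not lower in the tumours of any. Sequences were matched for 6 of the 8 genes, and Sox10 and Cdh19 are named only. Capitals mark each match, on either strand, to ACAANG or to GGGCGG, the GC box. ACAANG is a loose form of the core that SOX factors recognise, with any base allowed at N, where the usual core has A or T. The windows are chr11:102897201-102897450 for Gfap, chrX:73880791-73881040 for the first of the L1cam starts, and chr11:95587699-95587948 for Ngfr, all read 5′ to 3′ along the minus strand.
Gfap: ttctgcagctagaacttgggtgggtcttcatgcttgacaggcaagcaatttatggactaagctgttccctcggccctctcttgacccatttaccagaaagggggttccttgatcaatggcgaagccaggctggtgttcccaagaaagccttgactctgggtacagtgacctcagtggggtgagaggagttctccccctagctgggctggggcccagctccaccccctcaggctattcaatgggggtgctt
L1cam: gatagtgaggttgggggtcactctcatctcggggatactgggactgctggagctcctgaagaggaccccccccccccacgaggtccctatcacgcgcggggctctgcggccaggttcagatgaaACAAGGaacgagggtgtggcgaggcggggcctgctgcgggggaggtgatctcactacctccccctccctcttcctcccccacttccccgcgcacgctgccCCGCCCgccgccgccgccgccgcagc
Ngfr: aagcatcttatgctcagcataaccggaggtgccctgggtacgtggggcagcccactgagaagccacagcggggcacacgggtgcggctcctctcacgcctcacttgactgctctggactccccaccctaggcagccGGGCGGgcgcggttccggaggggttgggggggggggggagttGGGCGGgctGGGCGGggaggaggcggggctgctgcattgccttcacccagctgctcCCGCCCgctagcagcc
The Ngfr window holds 4 GC boxes and no ACAANG, and 70.4% of its bases are G or C. L1cam has 1 GC box and 1 ACAANG, the latter 126 bases before the start, in a window of 69.6% G or C. Gfap has neither, at 55.6% G or C. Over 32851 mouse promoter windows of the same length, 36.3% hold ACAANG and 32.7% hold GGGCGG. The S100b and Fabp7 windows hold 1 ACAANG each, and the Foxd3 window holds neither motif. The ACAANG matches of L1cam, S100b and Fabp7 have G or C at N, so none has the usual SOX core. A match is a description of the letters and not a measured binding site.

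In normal colon, L1cam was the most abundant of these genes when counts were also divided by exon length. It ran from 16.3 to 18.5 CPM per kilobase in the means of the 4 normal groups. The other 7 were at or under 2.36 CPM per kilobase in the same groups, the highest being Ngfr in KI female normal colon. On that scale the transcripts of the glial markers were scarce in colon RNA, and their values below rest on counts that are often under 100 per library.

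In tumours, Gfap and Cdh19 stood below normal colon in all 3 backgrounds, and both passed in WT females and KI males. Their libraries did not overlap in any of the 3. In WT males 26.4% of all genes were lower without overlap, and that share is not given here for WT females and KI males. L1cam fell in WT females, and in KI males it overlapped and did not pass. S100b, Sox10 and Foxd3 passed in neither of the tested comparisons, and the mean of Ngfr was not lower in the tumours of any background. In WT females 3 of 6 tested genes fell and none rose, where 24% of all tested genes fell and 25% rose. In KI males 2 of 7 fell and none rose, where 9.97% of all tested genes fell and 10.4% rose. The 3 tumour comparisons have no library in common, but all libraries were fitted together, so their tests share an estimate of spread and are not independent.

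**Figure D1:**
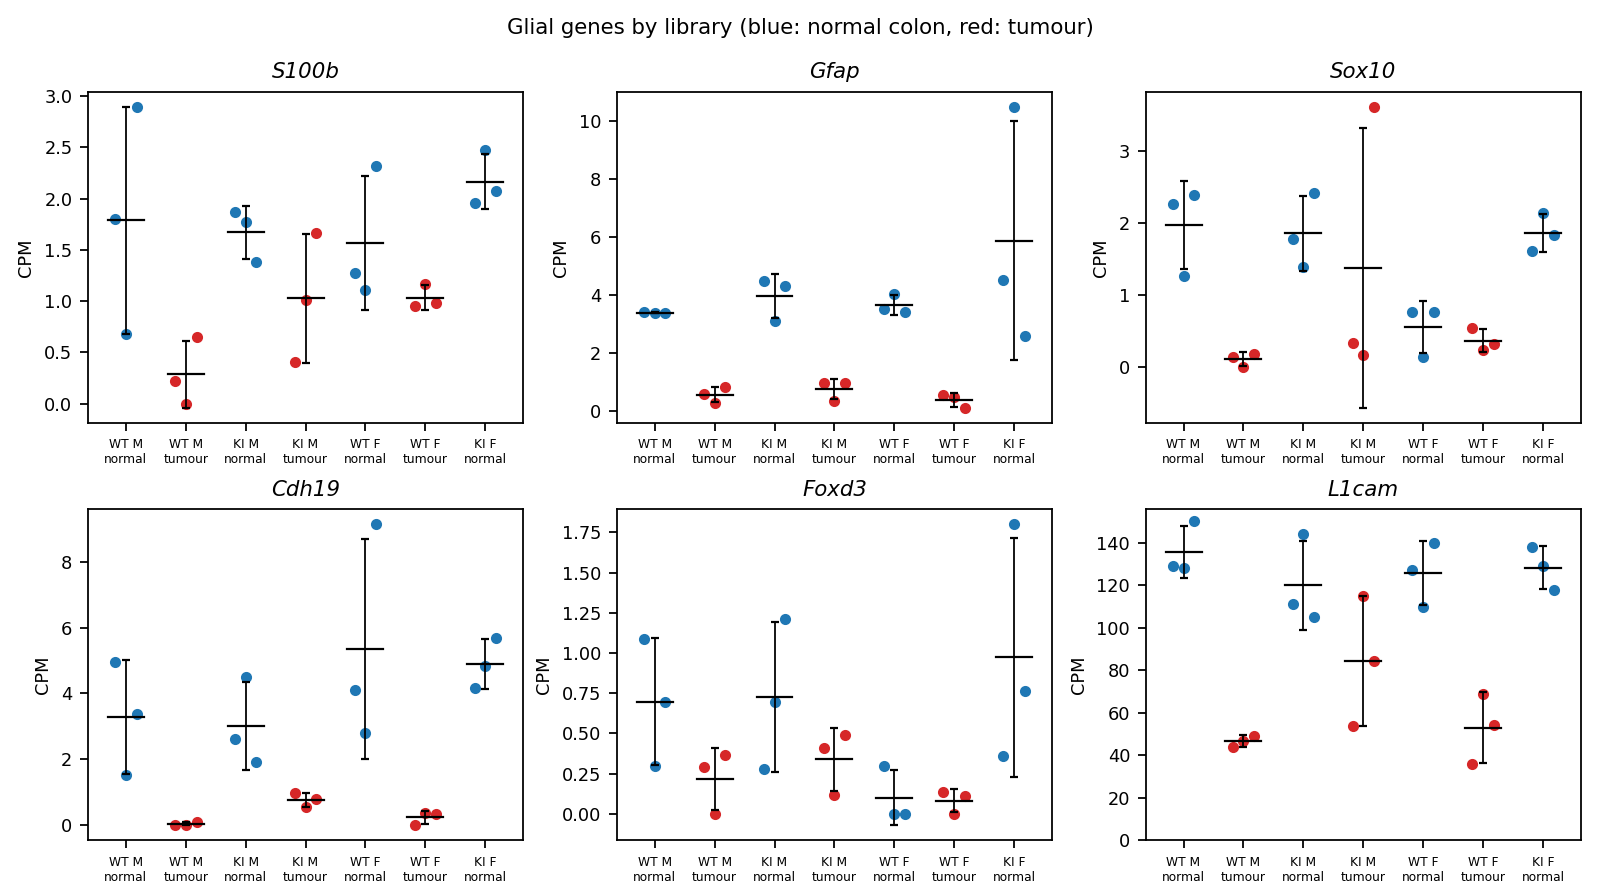
Levels of S100b, Gfap, Sox10, Cdh19, Foxd3 and L1cam (CPM, linear axis) in each of 3 libraries of the 7 groups. Points are libraries (blue, normal colon; red, tumour), lines are means and bars are 1 SD. Gfap lies under 1 CPM in every tumour library and above 2.5 CPM in every normal library, and 1 KI male tumour library stands far above the other two for Sox10 (3.62 CPM).

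Gfap encodes the intermediate filament of astrocytes and of reactive and enteric glia. It was 3.51, 4.04 and 3.41 CPM in WT female normal colon and 0.543, 0.468 and 0.109 CPM in WT female tumours. In KI males it was 4.49, 3.1 and 4.32 CPM in normal colon and 0.953, 0.355 and 0.979 CPM in tumours. Every normal library lay above every tumour library in both backgrounds. The fall was 3.29 log2 units in WT females (SE 0.57, adjusted p = 0.000109) and 2.4 log2 units in KI males (SE 0.48, adjusted p = 0.00386). By pooled counts the WT female groups differed 10-fold, with a 95% counting interval of 5.13 to 22.4 (134 counts in normal colon and 9 in tumours). In WT males Gfap was 3.4, 3.37 and 3.38 CPM in normal colon and 0.576, 0.291 and 0.829 CPM in tumours, a log2 fold change of -2.43.

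Cdh19 encodes a cadherin of Schwann cell precursors and nerve-associated glia. WT female normal colon had 4.1, 2.79 and 9.14 CPM, and WT female tumours had 0, 0.351 and 0.326 CPM. The fall of 4.42 log2 units (SE 0.69, adjusted p = 4.03e-05) rests on 6 counts in all WT female tumours against 176 in normal colon, a pooled ratio of 19.8 (counting interval 8.89 to 54.5). In KI males Cdh19 was 2.62, 4.49 and 1.9 CPM in normal colon and 0.953, 0.532 and 0.783 CPM in tumours. These groups also did not overlap, and the fall was 2 log2 units (SE 0.55, adjusted p = 0.0184). This call was lost without KI male normal replicate 2 (adjusted p = 0.066), without KI male tumour replicate 2 (0.0685), with limma voom (0.0878) and when the fit held only the compared groups (0.0502). In WT males, where the gene was picked out, the 3 tumours held 1 count in all against 159 in normal colon. That is a pooled ratio of 101, which rests on that 1 count and is given as a description.

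L1cam encodes a cell adhesion molecule of growing axons and of neural crest derived glia, and had the highest counts of the 8, from 161 to 3013 per library. WT female tumours had 36, 68.9 and 54.4 CPM against 127, 110 and 140 CPM in normal colon. It fell by 1.24 log2 units there (SE 0.23, adjusted p = 0.000224), with no overlap. KI male tumours had 54, 115 and 84.6 CPM against 111, 144 and 105 CPM in normal colon. The second of these tumours lay within the normal range, and the log2 fold change of -0.51 (SE 0.22) did not pass (adjusted p = 0.11). Without that tumour it was -0.83 (adjusted p = 0.0241). WT male tumours had 44.1, 46.9 and 49.3 CPM against 129, 128 and 150 CPM in normal colon, a log2 fold change of -1.54.

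S100b encodes a calcium binding protein that most enteric glia contain. It was 1.27, 1.11 and 2.32 CPM in WT female normal colon and 0.951, 1.17 and 0.979 CPM in WT female tumours. The groups overlapped (log2 fold change -0.56, SE 0.57, adjusted p = 0.438). In KI males normal colon had 1.87, 1.77 and 1.38 CPM and tumours had 0.408, 1.01 and 1.66 CPM, again with overlap (-0.74, SE 0.54, adjusted p = 0.338). In WT males the tumours had 0.216, 0 and 0.645 CPM, all under the normal libraries at 1.8, 0.674 and 2.89 CPM. As a description, the pooled ratio in WT males was 4.8, from 76 counts in normal colon and 10 in tumours.

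Sox10 was 2.27, 1.27 and 2.39 CPM in WT male normal colon and 0.144, 0 and 0.184 CPM in WT male tumours. The tumours held 4 counts against 89, a pooled ratio of 14.1, given as a description. In KI males normal colon had 1.78, 1.39 and 2.42 CPM, and the tumours had 0.34, 0.177 and 3.62 CPM. The third tumour, with 37 counts against 5 and 3 in the others, lay above every normal library of that background. With it the KI male log2 fold change was -0.52 (adjusted p = 0.63), and without it -2.81 (adjusted p = 0.00885). That library is 1 of 3 with library numbers from 152 up in the labels. In the same library S100b was also the highest of the 3 KI male tumours (1.66 CPM), while Cdh19 (0.783 CPM) and Gfap (0.979 CPM) stayed low. Melanocytes also need SOX10, and the 5 genes of their list summed to 4.76, 6.8 and 3.13 CPM in the 3 KI male tumours and to 4.86, 6.65 and 7.35 CPM in KI male normal colon. Nearly all of this was Pmel, at 3.13 CPM in the third tumour, where Tyr, Tyrp1, Dct and Mlana had 0 counts (Tyr named after its value was seen). Their part in the result was not tested. In WT females normal colon was already low, at 0.761, 0.139 and 0.774 CPM against 0.543, 0.234 and 0.326 CPM in tumours, and the groups overlapped (-0.7, SE 0.94, adjusted p = 0.562).

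Foxd3 had 0 to 23 counts per library. It was 0.28, 0.696 and 1.21 CPM in KI male normal colon and 0.408, 0.118 and 0.489 CPM in the tumours (log2 fold change -1.15, SE 0.81, adjusted p = 0.316). WT female normal colon had 7, 0 and 0 counts and WT female tumours had 1, 0 and 1, too few to show a difference at this depth (adjusted p = 0.582). WT male values were 1.09, 0.3 and 0.696 CPM in normal colon and 0.288, 0 and 0.368 CPM in tumours. Fabp7 never passed 0.587 CPM. Its tumours held more counts than normal colon in KI males, 13 against 4, and the pooled ratio of 2.96 has a counting interval from 0.914 to 12.5 that includes no difference.

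**Figure D2:**
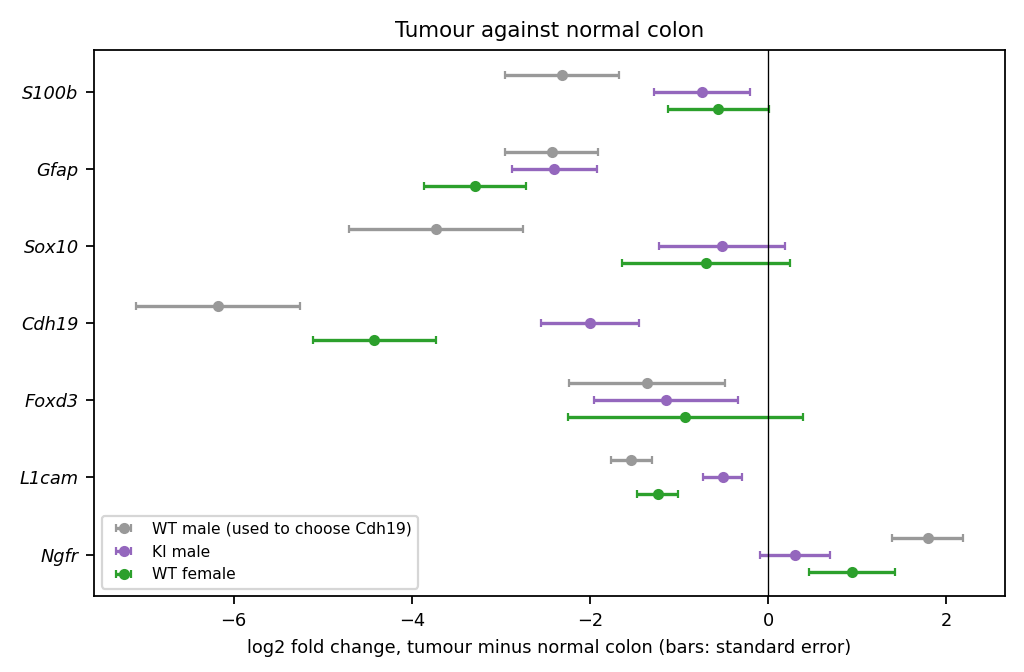
Log2 fold change of each of the 7 tested genes in tumour against normal colon, with bars of 1 SE, in WT males (grey, a comparison that was used to choose Cdh19), KI males (purple) and WT females (green). Gfap lies between -3.29 and -2.4 in all 3 backgrounds and Ngfr lies to the right of 0 in all 3.

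The counts have to be read against how much of the transcriptome differed. In WT females 49.1% of all tested genes passed in either direction, beside 3 of 6 of the glial genes (Gfap, Cdh19, L1cam). In KI males 20.4% passed in either direction, beside 2 of 7 (Gfap, Cdh19). In WT males 35.7% of all genes passed (16.5% higher, 19.3% lower), and 5 of the 7 genes were lower and 1 (Ngfr) higher without overlap between the libraries, where 26.4% and 26% of all genes were. The median log2 fold change of the 7 genes was -2.31 in WT males, -0.93 in WT females and -0.74 in KI males, and that of all tested genes was 0.01 in each.

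A wider list of 16 glial markers, 15 of them tested, also stood lower in tumours. It had 11 lower and 2 higher genes in WT males, 7 lower and 2 higher in WT females, and 6 lower and 1 higher in KI males, with medians of -1.49, -0.78 and -0.54. The WT male counts use the same threshold in the comparison that chose Cdh19 and are a description. There 19.3% of all genes were lower and 16.5% higher. Erbb3, the neuregulin receptor that glial precursors depend on and that gut epithelium also makes, fell by 1.38 log2 units in WT females (SE 0.17, adjusted p = 4.34e-06) and by 0.54 in KI males (SE 0.17, adjusted p = 0.0296). Matn2, a matrix protein, fell by 1.17 log2 units in WT females (SE 0.32, adjusted p = 0.00606). Ptprz1, a receptor phosphatase of glial precursors, rose against the list. It went from a mean of 16.7 to 176 CPM in WT females (log2 fold change 3.4, SE 0.4, adjusted p = 4.71e-06) and from 45.7 to 104 CPM in KI males (1.19, SE 0.36, adjusted p = 0.0312).

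Among the growth factor axes that act on these cells, the ligand Nrg1 rose and its receptors Erbb2 and Erbb3 fell in both tested tumour comparisons. Nrg1 (neuregulin 1) went from a mean of 5.89 to 35 CPM in WT females (log2 fold change 2.61, SE 0.45, adjusted p = 0.000146) and from 9.78 to 36.5 CPM in KI males (1.9, SE 0.42, adjusted p = 0.00685). Erbb2, its co-receptor, fell by 1.29 log2 units in WT females and by 0.62 in KI males (adjusted p = 2.36e-05 and 0.0267). Of the 11 genes of the neuregulin, GDNF and endothelin 3 axes, 3 rose and 4 fell in WT females, and 1 rose and 3 fell in KI males. In WT males, as a description by the same threshold, 1 was higher and 6 were lower. Ret, the signalling receptor of the GDNF family, rose in WT females by 2.8 log2 units (SE 0.6, adjusted p = 0.00106). The L1cam relative Nfasc fell in KI males by 1.08 log2 units (SE 0.32, adjusted p = 0.0267), while Chl1 and Nrcam did not pass in either tested comparison.

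Of 8 neural crest regulators, 6 were tested. Sox5 and Sox6 rose in WT females (1.7 and 1.36 log2 units, adjusted p = 0.000582 and 0.000678). Snai2 rose in KI males, by 1.67 log2 units (SE 0.39, adjusted p = 0.00769), a gene named after its value was seen. Of 10 myelinating Schwann cell genes, 8 were tested: 3 rose and 2 fell in WT females, and 1 rose in KI males. Ncmap, a small protein of peripheral myelin, rose in both, by 3.38 log2 units (adjusted p = 3.59e-05) and 1.8 log2 units (adjusted p = 0.0115). The summed level of the 10 genes went the other way, at 106 to 222 CPM in WT female tumours against 376 to 510 CPM in normal colon. In KI males it was 215 to 317 CPM against 285 to 378 CPM. Pmp22 and Mbp had the highest levels of the list, with means of 255 and 64.8 CPM over all libraries. Of 6 genes of repair glia in injured nerve, 5 were tested. In WT females 3 rose and 1 fell, with Nes, an intermediate filament of progenitor cells, up by 2.92 log2 units (SE 0.28, adjusted p = 3.84e-07). In KI males none rose and 1 fell, Gap43, by 2.43 log2 units (SE 0.52, adjusted p = 0.00543), a gene named after its value was seen.

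Marker lists of other tissue layers were also compared in the tumours, and they did not all move alike. All 11 smooth muscle genes fell in WT females and in KI males, with medians of -4.14 and -2.5, and their summed level was 281 to 336 CPM in WT female tumours against 2340 to 5385 CPM in normal colon. In KI males it was 1106 to 1334 CPM in tumours against 5463 to 9696 CPM. Of 14 enteric neuron genes 12 were tested, and 9 fell in WT females and 6 in KI males, with none higher. Their summed level was 11.3 to 16 CPM in WT female tumours against 52.4 to 73.9 CPM in normal colon, and the defining markers Prph, Chat and Nefm, named after their values were seen, had 0 counts in all 3 tumours. In KI males the neuron sum was 21.4 to 35.1 CPM in tumours against 47.5 to 68.9 CPM. Interstitial cell of Cajal genes were lower as well, 3 of 3 in WT females (median -1.42) and 1 of 3 in KI males (median -0.19). Of 6 epithelial genes, 5 fell and 1 rose in WT females (median -0.68), and none fell and 1 rose in KI males (median -0.03). Of 4 fibroblast genes, 2 rose and 1 fell in WT females, and 1 rose and none fell in KI males. Their sum was 773 to 1373 CPM in WT female tumours against 437 to 584 CPM in normal colon. In KI males it was 1134 to 1825 CPM against 897 to 1304 CPM. Of 3 endothelial genes, 2 rose and none fell in WT females, and none passed in KI males. Rn45s, the ribosomal RNA precursor, took 7.96% to 10% of counts in WT female tumours against 2.84% to 3.18% in normal colon, and 6.95% to 8.23% in KI male tumours against 6.59% to 14.1%. The part of these in the values of Gfap, Cdh19 and L1cam was not tested.

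**Figure D3:**
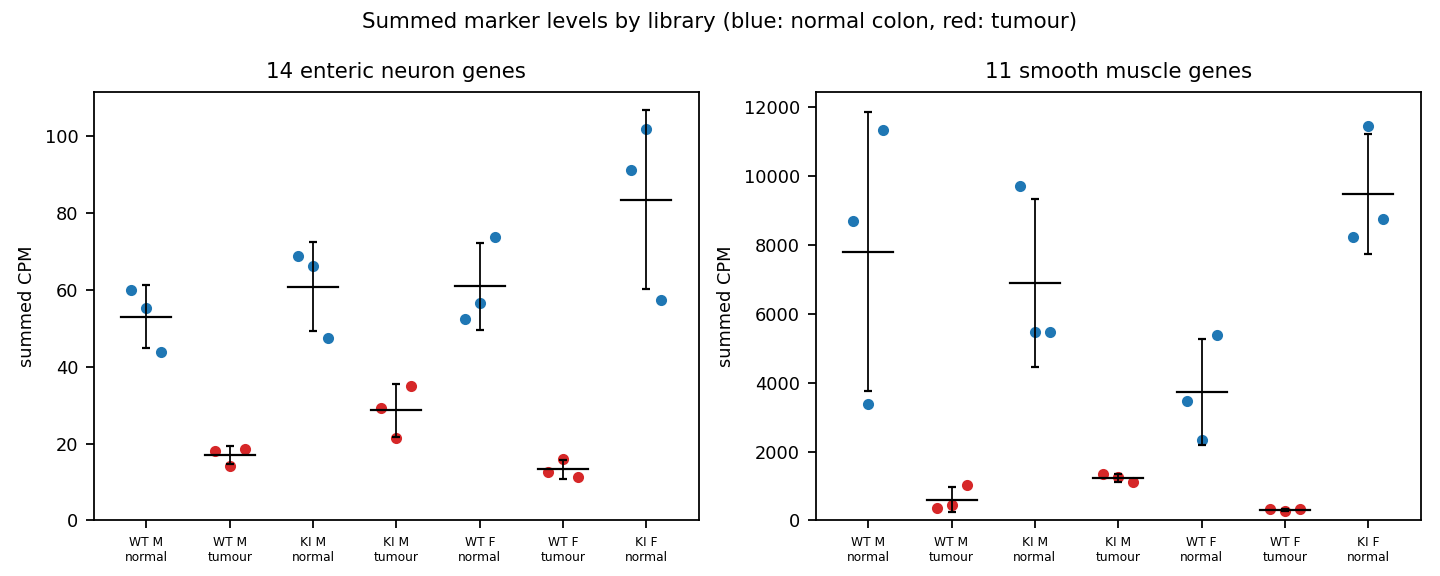
Summed levels (CPM, linear axes from 0) of 14 enteric neuron genes and 11 smooth muscle genes in each library of the 7 groups (blue, normal colon; red, tumour), with lines for means and bars of 1 SD. Both sums are lower in every tumour library than in every normal library.

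Tumours of KI males were then compared with tumours of WT males, the contrast of App genotype within treated mice. L1cam was higher in KI, at 54, 115 and 84.6 CPM against 44.1, 46.9 and 49.3 CPM (log2 fold change 0.86, SE 0.23, adjusted p = 0.0233). Its libraries did not overlap, and the share of all genes without overlap in this contrast is not given here. The L1cam call was lost without any 1 of the WT male tumours (adjusted p up to 0.0845), without KI male tumour replicate 2 (0.144) and when the fit held only the compared groups (0.0783). Sox10 passed as well (3.13, SE 1.01, adjusted p = 0.0457), but its libraries overlapped and the result rests on the KI tumour with 37 counts. Without that tumour the log2 fold change was 0.84 (adjusted p = 0.512). The Sox10 call was also lost without any 1 of the WT male tumours (adjusted p up to 0.139) and with limma voom (0.113). It was lost as well with no low-count filter (0.0513) and with a covariate for the libraries numbered 152 and above (0.285). Those 2 of 5 tested genes stand beside 14.5% of all genes in either direction and 9.3% higher. S100b did not pass (1.51, SE 0.66, adjusted p = 0.123), nor did Gfap (0.25, SE 0.57, adjusted p = 0.782) or Foxd3 (0.24, SE 0.96, adjusted p = 0.884). Cdh19, given without a test, had 31 counts in KI tumours against 1 in WT tumours, a pooled ratio of 20.9 that rests on that 1 count.

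Markers beside these genes were also higher in the KI male tumours. Of the wider glial list 3 of 15 were higher and none lower, namely Matn2 (1.67 log2 units), Scn7a (1.74) and Ncam1 (0.82), the latter pair named after their values were seen. Of the neuron genes 2 of 12 were higher, Nos1 by 3.92 log2 units (adjusted p = 0.0155) and Vip by 2.46 (adjusted p = 0.0345). That count was 0 without WT male tumour replicate 1 and with only the compared groups, 1 without WT male tumour replicate 2 or KI male tumour replicate 1 or 3, and 0 to 3 over the other settings. The summed neuron level was 29.4, 21.4 and 35.1 CPM in KI male tumours and 18.2, 14.3 and 18.6 CPM in WT male tumours. The smooth muscle sum was 1106 to 1334 CPM against 350 to 1026 CPM, also without overlap, though none of its 11 genes passed (8 did without WT male tumour replicate 3, and 4 with DESeq2). Their part in the result was not tested.

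The difference between the 2 tumour effects was tested directly. With edgeR none of 5 tested genes passed, with 2 at an unadjusted p under 0.05, where 1.51% of all genes passed. L1cam had an interaction of 1.03 log2 units (SE 0.32, adjusted p = 0.0765). It was 0.0337 with DESeq2 and 0.0283 with limma voom, so this call depends on the tool. The Sox10 interaction was 3.22 (SE 1.24, adjusted p = 0.126). Gfap had an interaction of 0.03 (SE 0.66, adjusted p = 0.982). Scn7a, a sodium channel found in glia, was the 1 gene of the wider list that passed (1.86, SE 0.32, adjusted p = 0.0406), named after its value was seen, and the number of calls in that list was 0 to 2 with 1 library left out.

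In normal colon of males no tested member passed between the App genotypes. None of 6 tested genes passed with edgeR, DESeq2 or limma voom, and none reached an unadjusted p under 0.05, where 0.0126% of all genes passed. The log2 fold changes ran from -0.17 for L1cam (SE 0.22) to 0.29 for Ngfr (SE 0.4). The SEs of Foxd3 and Sox10 were 0.74 and 0.68 at their depth, so these intervals are wide. No gene of the wider glial, neuron or smooth muscle lists passed either.

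In normal colon of females 1 of 7 genes differed with genotype, Ngfr, which was higher in KI. In either direction 16% of all genes passed, and 8.97% were higher. Sox10 was 1.61, 2.14 and 1.84 CPM in KI females and 0.761, 0.139 and 0.774 CPM in WT females (1.62, SE 0.77, adjusted p = 0.158). Foxd3 had 32 counts against 7, a pooled ratio of 4.4 with a counting interval from 1.91 to 11.8 (adjusted p = 0.0719). For Sox10, Foxd3 and Ngfr every KI library lay above every WT library, as 19.6% of all genes did. Gfap was 4.52, 10.5 and 2.6 CPM in KI females and 3.41 to 4.04 CPM in WT females (0.67, SE 0.43, adjusted p = 0.309). L1cam (0.03, SE 0.22), Cdh19 (-0.11, SE 0.49) and S100b (0.49, SE 0.53) did not pass.

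WT female normal colon was also set against WT male normal colon. Ngfr fell by 1.95 log2 units (SE 0.45, adjusted p = 0.00806), the 1 call of 6 tested genes, where 15.9% of all genes passed and 10.2% were lower. Sox10 (-1.72, SE 0.77, adjusted p = 0.13) and Foxd3 (-2.07, SE 0.89, adjusted p = 0.119) did not pass, and with Ngfr these 3 genes were lower without overlap, as 17.4% of all genes were. Gfap was higher without overlap (0.11, SE 0.43, adjusted p = 0.898). The 2 comparisons share the 3 WT female normal libraries, so they are not separate evidence. KI female against KI male normal colon shares no library with the comparisons that chose the genes: none of 7 passed with edgeR, DESeq2 or limma voom, and none reached an unadjusted p under 0.05, where 0.584% of all genes passed. Sox10 was 1.86 CPM in the mean of both of those groups.

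Marker sums of other cell types also differed between KI and WT female normal colon. The summed smooth muscle level was 2340 to 5385 CPM in WT and 8213 to 11456 CPM in KI female normal colon, and 5 of 11 muscle genes were higher in KI. That count was 2 to 5 with 1 library left out (2 without WT female normal replicate 1 or 2 or KI female normal replicate a, and 3 without KI female normal replicate 1) and 3 to 10 over the other settings. The fibroblast sum was 437 to 584 CPM against 846 to 1030 CPM, and the endothelial sum 39 to 65.8 CPM against 94.5 to 103 CPM. Of the wider glial list 5 of 15 were higher in KI and none lower (Gpr37l1, Matn2, Lgi4, Zfp536 and Ncam1, by 0.88 to 2.17 log2 units), named after their values were seen, and 2 to 5 with 1 library left out (2 without WT female normal replicate 1 or 2 or KI female normal replicate 1 or a, and 3 without KI female normal replicate b). All 4 mesothelial genes were lower in KI (median -4.74), with sums of 2.17 to 27.4 CPM in WT and 1.24 to 2.5 CPM in KI. The sum of WT female normal replicate 3, 2.17 CPM, lay within the KI range. That count of 4 was 0 to 4 with 1 library left out and 0 to 4 over the other settings. The enteric neuron list had no gene that passed, with sums of 52.4 to 73.9 CPM in WT and 57.3 to 102 CPM in KI. Rn45s took 2.84% to 3.18% of counts in WT and 4.85% to 5.96% in KI female normal libraries. The part of these in the Ngfr difference was not tested.

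**Figure D4:**
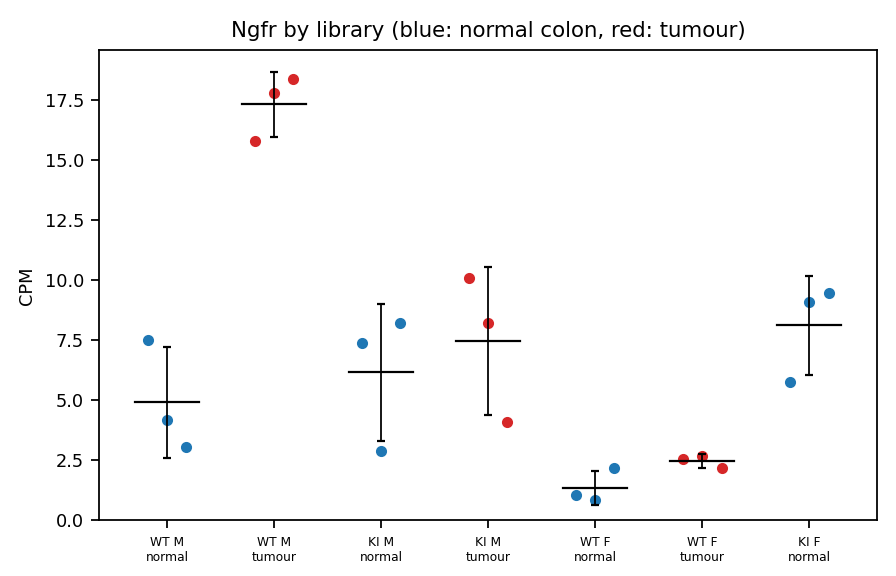
Level of Ngfr (CPM, linear axis from 0) in each library of the 7 groups (blue, normal colon; red, tumour), with lines for means and bars of 1 SD. WT male tumours stand highest, at 15.8 to 18.4 CPM, and WT female normal colon lowest, at 0.836 to 2.17 CPM.

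Ngfr encodes p75NTR, the receptor that binds all neurotrophins, and is found on Schwann cells, enteric neural crest cells, some neurons, fibroblasts and follicular dendritic cells. Its pattern over the 7 groups was unlike that of the other members. WT male tumours had 15.8, 17.8 and 18.4 CPM, above every other library of the study. KI female normal colon had 5.77, 9.11 and 9.49 CPM, KI male tumours had 10.1, 8.22 and 4.11 CPM, KI male normal colon had 7.38, 2.91 and 8.21 CPM, and WT male normal colon had 7.51, 4.19 and 3.08 CPM. These 4 groups overlapped with their neighbours in the order of means. WT female tumours had 2.58, 2.69 and 2.17 CPM, and WT female normal colon had 1.06, 0.836 and 2.17 CPM.

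The KI and WT female normal colons differed in Ngfr by 2.64 log2 units (SE 0.46, adjusted p = 0.00111), with a mean of 8.12 ± 2.04 CPM (SD, n = 3) in KI against 1.35 ± 0.714 CPM in WT. It kept its call under every alternative run, including the omission of each library in turn (adjusted p up to 0.0132). In male normal colon the same genotype contrast was 0.29 log2 units (SE 0.4). The difference between these 2 genotype effects was 2.35 log2 units (SE 0.6, adjusted p = 0.0445), the 1 call of 6 tested genes, where 2.54% of all genes passed. That interaction was lost when the fit held only the compared groups (adjusted p = 0.1) and without any 1 of 6 libraries (adjusted p up to 0.139): WT female normal replicates 1 and 2, WT male normal replicate 1, KI male normal replicate 2, and KI female normal replicates a and b. The WT female against WT male normal difference was lost without WT female normal replicate 1 (adjusted p = 0.0561) or 2 (0.0505), or WT male normal replicate 1 (0.0588).

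In tumours Ngfr did not pass in KI males (0.3, SE 0.39, adjusted p = 0.614). As a description, WT male tumours stood 1.79 log2 units above WT male normal colon. WT female tumours stood 0.94 log2 units above WT female normal colon and 2.8 log2 units below WT male tumours, a contrast in which 0.86% of all genes passed. KI male tumours stood 1.2 log2 units below WT male tumours.

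The ligands and partner receptors of Ngfr had levels of their own. Bdnf, a ligand, rose in WT females by 2.26 log2 units (SE 0.61, adjusted p = 0.0046) and Ntf5 by 4.18 (SE 1.32, adjusted p = 0.0135). Sort1, the sortilin co-receptor for proneurotrophins, fell in WT females by 0.94 log2 units (SE 0.13, adjusted p = 1.42e-05). Ntrk3, the receptor of neurotrophin 3, had 0 counts in all 3 WT female tumours. In KI males none of the 7 tested genes of this list passed, and in the comparison of KI with WT female normal colon, where Ngfr was higher, none passed either. Follicular dendritic cell genes were summed at 12.3 to 14.6 CPM in WT male tumours, where Ngfr was highest, and at 14.6 to 56.9 CPM in WT male normal colon. The fibroblast sum was 1012 to 1178 CPM in WT male tumours and 914 to 1069 CPM in WT male normal colon. The part of either cell type in the Ngfr level was not tested.

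Over the 21 libraries, levels of Cdh19 and L1cam had a Pearson r of 0.91, and Gfap and Cdh19 one of 0.84. The other pairs without Ngfr lay between 0.37 and 0.78. Ngfr had r between -0.43 and 0.34 with every other tested member. After the group means were subtracted, Gfap and Cdh19 had r of -0.13 and Cdh19 and L1cam 0.4, while S100b and Sox10 had 0.57 (0.76 before) and Sox10 and Foxd3 0.55 (0.74 before). These values share libraries and depth and are given as a description.

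The genes most like each member over the 21 libraries were named by the highest r. For Gfap they included Pcsk1n, Celf3 and Prph (r of 0.95, 0.95 and 0.94), and Prph is the peripherin filament of peripheral neurons. Cdh19 was most like Tmem117, Vipr2 and Ncoa1 (0.96 each), L1cam most like Prkacb and Hmcn1 (0.97 each), and Sox10 most like Sgca and Bin1 (0.92 each), of which Sgca is a sarcoglycan of muscle. S100b had lower values, led by BC021891 (0.9), and Foxd3 was led by Dlg4 (0.85). For Ngfr the closest were Pacs2 (0.89) and Kremen1 (0.88), a WNT pathway receptor. The mean of the 7 members was most like Wfdc1 (0.97), followed by Ppp1r12b, Sspn, Jph2 and Tpm2 (0.96 each), and Tpm2 and Ppp1r12b encode parts of the contractile apparatus of muscle. These values include the differences between groups. After the group means were subtracted, the mean of the members was closest to other genes, Arl4d (0.87), Pced1b (0.86), and Stk32c, Trpm3 and Atp1b2 (0.84 each). L1cam was then most like Tspan15 (0.94), and Sgca stayed among the closest to Sox10 (0.9).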

How the data were processed

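Colon RNA was taken up in Qiazol, ribosomal RNA was depleted by RNase H digestion, and random-primed cDNA was sequenced on a NovaSeq, per the labels' protocols. The authors deposited raw counts per gene; Trimmomatic, HISAT2, featureCounts, DESeq2 and build mm10 are named in the submitters' processing notes, and the strand setting is not given in the sources used here. In the count header 2 columns of KI female normal colon share a name and were used as unnumbered replicates a and b. A second deposited table, of the authors' comparisons, was not used.

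Groups were tested two-sided with the quasi-likelihood F test of edgeR, with TMM scaling and the filterByExpr filter, on all 21 libraries in 1 fit, with Benjamini-Hochberg adjustment over 15936 genes and a threshold of 0.05. In all, 9 pairs of groups were compared and 2 interactions fitted. SEs were derived from the fold change and F. Pooled ratios carry exact intervals at 95% that cover counting error only. Pearson r used log2 CPM with a prior count of 2. R 4.3.3, edgeR 4.0.16, limma 3.58.1 and DESeq2 1.42.0 were used. On simulated counts for KI male tumour against normal colon (15722 genes, 200 changed) edgeR recovered 51% of genes changed by 1 log2 unit and 87% of those changed by 2, with 8 false calls. The changed genes were drawn at random from all tested genes, and the rest did not differ between groups. These rates are not specific to members with few counts. No pair of replicates agreed within sampling noise (chi-square per degree of freedom 6.6 to 63.4).

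The members and gene lists were chosen with earlier results of these data known. The genes named are the 8 members, the ligands, receptors and family of members, of each list the 2 to 4 with the highest mean CPM, and the 5 most alike genes by r; any other is said beside it to be named after its value was seen. Some genes of the lists are counted but not reported here by name. Replicate numbers, from the labels, are not said to mark shared animals. Same-numbered deviations correlated by 0.17, 0.17 and 0.21 in the 3 pairs of WT male tumour and normal colon, and not above 0.1 in every pair elsewhere.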

Additional observations from a re-analysis of the deposited data

Results flagged for a closer look

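The genotype effect on Ngfr differed between the sexes in normal colon by a test of the difference itself. The log2 fold change of KI against WT was 2.64 in females and 0.29 in males, and the interaction was 2.35 (SE 0.6, adjusted p = 0.0445 with edgeR). Every KI female library lay above every WT female library. The adjusted p ran from 0.00471 to 0.1 over the other settings and from 0.0212 to 0.139 when libraries were left out in turn.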

How the results depend on the processing

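The 37 fold changes given for the members were recomputed under 581 alternatives in all, of which 535 stayed the same. Same means the same direction and side of the threshold or, where no test is given, the same direction and a shift under 1 SE. In 3 the sign changed, each with 1 library left out. These were KI male tumour against normal colon for Ngfr (-0.1 and -0.03, range -0.1 to 0.59) and for Sox10 (0.02, range -2.81 to 0.02). The number of members that passed in WT female tumours stayed at 3 under every alternative run. In KI male tumour against normal colon it was 1 in place of 2 with limma voom and with only the compared groups, and 1 to 3 with replicates left out. In KI against WT male tumours it was 1 in place of 2 with no low-count filter, with limma voom, with a covariate for the libraries numbered 152 and above and without those libraries, 0 with only the compared groups, and 0 to 2 with replicates left out. In KI against WT female normal colon it was 2 in place of 1 with only the compared groups and 1 to 2 with replicates left out. In WT female against WT male normal colon it was 2 in place of 1 with limma voom and 0 to 1 with replicates left out. For the difference of the tumour effects it was 1 in place of 0 with DESeq2 and with limma voom and 0 to 1 with replicates left out. For the difference of the genotype effects it was 0 in place of 1 with only the compared groups and 0 to 1 with replicates left out. The omission of the libraries numbered 152 and above, and the same alternatives for the gene lists, were chosen after seeing the data. The causes were not tested. Where a group was left with 1 library, that library was assumed to vary like the other groups.

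With the replicate number as a block, the number of members that passed was 3 in WT female and 2 in KI male tumour against normal colon, 2 in KI against WT male tumours and 1 in WT female against WT male normal colon, and the block changed no call of a member. No paired analysis was possible for comparisons with KI female normal colon because 2 of its columns carry no replicate number of their own.

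Counts over all genes moved by more than 1.5 times as follows, with the range for 1 library left out in brackets. WT male tumour against normal colon gave 5697 genes (3659 to 5373). KI male tumour against normal colon gave 3246 (1392 to 2994), 724 with only the compared groups and 2091 without the libraries numbered 152 and above. KI against WT male tumours gave 2315 (429 to 2252) and 1438 with only the compared groups. KI against WT male normal colon gave 2, 6 with DESeq2 and 0 with only the compared groups. KI against WT female normal colon gave 2545 (1022 to 2745) and 4457 with limma voom. WT female against WT male normal colon gave 2534 (1037 to 2799), 5317 with limma voom and 1623 with only the compared groups. WT female against WT male tumours gave 137 (12 to 116), with 23 to 2916 over the other settings, and KI female against KI male normal colon gave 93 (5 to 649), with 17 to 666. The difference of the tumour effects gave 240 (0 to 2104), with 0 to 1326, and that of the genotype effects 405 (91 to 614), with 254 to 1093. Scaling by library totals moved the median of all genes to 0.15 in WT female tumours and to 0.1 in KI against WT female normal colon. With it 62.1% and 72.8% of calls were higher there, in place of 51% and 56.1%. The wider glial list in KI male tumours had 3 to 8 genes in place of 7 (3 to 7), the neuron list 1 to 6 in place of 6 (3 to 6), and the smooth muscle list 10 to 11 in place of 11 (11). Members with few counts (Foxd3, Fabp7, Sox10 and Cdh19 in tumours) are limited by depth.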

Other observations

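In female normal colon, the progenitor filament gene Nes and the growth cone gene Gap43, both from the repair glia list, were higher in KI, as Ngfr was. They were the 2 of 5 tested genes of that list that passed, where 8.97% of all genes were higher. The list had a median of 0.46, and 1 to 2 of its genes passed with 1 library left out. Nes was 2.28, 1.39 and 2.63 CPM in WT and 8.04, 8.32 and 9.42 CPM in KI females (log2 fold change 2.01, SE 0.28, adjusted p = 0.000182 with edgeR). Its genotype effect differed between females and males by 2 log2 units (SE 0.37, adjusted p = 0.00886). Nes was the 1 gene of the list that passed for that difference. Gap43 was 0.507, 0.836 and 0.774 CPM in WT and 2.5, 4.5 and 2.14 CPM in KI females (2.15, SE 0.48, adjusted p = 0.00631). For both genes every KI library lay above every WT library, as for 19.6% of all genes. These genes were named after their values were seen, and the fibroblast, endothelial and smooth muscle sums moved with them.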
